A study of Homo sapiens with 5 samples.

Results

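Interferon-stimulated effector genes were examined in RH4 cells, an established human cell line of alveolar rhabdomyosarcoma, after knock-down of the circular RNA circVAMP3. The gene family was defined by symbol as IFIT1, IFIT2, IFIT3, IFIT5, ISG15, MX1, IFI6, IFI27, IFITM1 and IFITM3. Of these 10 genes, 6 had a row among the 13822 genes of the expression table, and IFIT2, MX1, IFI27 and IFITM1 were not in the table used here. The control group was RH4 cells given the control siRNA si-SCR (3 biological replicates), and the knock-down group was RH4 cells given the siRNA si-circVAMP3 (2 biological replicates). Either siRNA was transfected at 30 nM, and RNA came from cells at 24 h past a change of medium, itself made 24 h into the transfection. Poly-A+ RNA was sequenced, and each level is given in FPKM, a read count scaled to gene length and library size. All cells were of 1 line, so the replicates measure the spread between cultures of that line. The whole reads recovered from the table summed to 26931410, 25522093 and 25424311 in the 3 si-SCR libraries and to 18974098 and 29359072 in the 2 si-circVAMP3 libraries.

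Type I interferons bind a receptor of the paired subunits IFNAR1 and IFNAR2, which signals through the kinases JAK1 and TYK2. A transcription factor that includes STAT2 and IRF9 then binds the interferon-stimulated response element, a DNA element with repeated GAAA, and turns on a large set of antiviral genes. Sensors of foreign RNA and DNA in the cytoplasm and endosome start the programme by inducing interferon, and in tumour cells the same genes are read as a mark of interferon signalling.

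The siRNA sequence showed what si-circVAMP3 was directed against. Its first 19 bases were compared with the ends of the 5 exons of the canonical VAMP3 transcript (GRCh38, chromosome 1, + strand). They matched 1 junction, in which the end of exon 4 is joined to the start of exon 3, the order of a back-spliced circle and not of the linear mRNA. The capitals mark the 11 bases that lie in exon 3 (chr1:7777160-7777318), the 8 bases before them lie in exon 4 (chr1:7778118-7778169), and the last bases, uu, lie outside the match.
si-circVAMP3: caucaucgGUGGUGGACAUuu
A circle has no poly-A tail, so the poly-A+ table gives no value for circVAMP3 and cannot serve as a check of its knock-down. The linear VAMP3 mRNA was at 36.4, 35.4 and 37.4 FPKM in the si-SCR libraries and at 29.4 and 30.2 FPKM in the si-circVAMP3 libraries. The linear transcript was lower in both knock-down libraries than in any control. Its log2 change was −0.29 (SE 0.043), with a limma adjusted p of 0.00496, and its size was short of the fold threshold of the calls. Without the first si-circVAMP3 library the adjusted p was 0.0506.

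Changes are the difference, si-circVAMP3 minus si-SCR, of mean log2(FPKM + 0.5), a scale that understates the change of weakly expressed genes. A gene was called changed when its limma p, adjusted by the Benjamini-Hochberg method over the 12245 genes with a mean level of at least 0.5 FPKM, was below 0.05 and its log2 change was above 0.58 in size. By this rule 133 genes (1.09%) rose and 333 genes (2.72%) fell. By the adjusted p alone, 1784 genes (14.6%) were higher and 1939 (15.8%) lower in si-circVAMP3 cells. With 1 library left out this looser count ranged from 484 to 1989 higher and from 779 to 2005 lower, lowest without a si-circVAMP3 library and highest without the third si-SCR library. At an unadjusted p below 0.05, 21.2% of the tested genes were higher and 21.5% lower. In bulk RNA a lower level in every cell and a smaller number of expressing cells cannot be told apart.

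The promoters of the members were read for a known interferon element. RefSeq promoters (GRCh38.p14, from 250 bases before to 50 bases after the annotated start) were searched on both strands for GAAANNGAAA, the core of the interferon-stimulated response element. Of 27305 gene symbols with a promoter entry, 1195 (4.38%) had a match in at least 1 entry. By the same count all 9 members with an entry had a match, as did 25 of 39 other interferon-stimulated effectors, 11 of 14 genes of antigen presentation, 4 of 9 sensors of nucleic acids, 4 of 11 interferon genes, 1 of 4 genes of ISG15 conjugation, 1 of 14 receptors and signalling proteins and 0 of 4 close relatives. The stretches holding the matches of the 6 measured members are given in the direction of the gene, with the matched bases in capitals. A match on the other strand reads TTTCNNTTTC.
IFIT1: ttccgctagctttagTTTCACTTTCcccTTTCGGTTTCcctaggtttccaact
IFIT3: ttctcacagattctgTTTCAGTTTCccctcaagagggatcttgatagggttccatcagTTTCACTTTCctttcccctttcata
IFIT5: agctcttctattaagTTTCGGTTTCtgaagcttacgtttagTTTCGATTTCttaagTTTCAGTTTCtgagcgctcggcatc
ISG15: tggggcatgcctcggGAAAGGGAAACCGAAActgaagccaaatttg
IFI6: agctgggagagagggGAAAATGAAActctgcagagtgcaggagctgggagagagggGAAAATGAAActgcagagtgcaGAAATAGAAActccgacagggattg
IFITM3: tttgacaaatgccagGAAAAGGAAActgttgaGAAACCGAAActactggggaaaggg
The IFIT stretches lie together on chromosome 10, at chr10:89392492-89392544 for IFIT1, chr10:89332420-89332502 for IFIT3 and chr10:89414508-89414588 for IFIT5, all on the + strand. IFIT3 has a second promoter entry, which also holds 2 matches. The ISG15 stretch is at chr1:1013369-1013414 (+), where the 2 matches overlap and begin 113 and 107 bases before the start. Those of IFI6 and IFITM3 are at chr1:27672261-27672363 (−) and chr11:320871-320927 (−). IFI6 and IFIT5 had 3 matches each, and the other 4 measured members had 2 in the promoter shown. A match is a description of the sequence, and binding of a factor was not measured.

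The members spanned a wide range of levels, so they were not measured with the same precision. IFITM3 was the most abundant at about 156 FPKM over the 5 libraries, followed by IFI6, IFIT5 and ISG15, and IFIT1 and IFIT3 were lowest at 0.385 and 0.337 FPKM. The last 2 were under the filter of 0.5 FPKM, which left 4 members for the test.

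The IFIT proteins bind viral RNA and block its translation, and IFIT1 recognises RNA with a foreign cap. IFIT1 was at 0.293, 0.442 and 0.295 FPKM in the si-SCR libraries and at 0.573 and 0.324 FPKM in the si-circVAMP3 libraries. The first knock-down library was the highest of all 5, but the other lay below the second control, so the groups overlapped. IFIT1 rested on 34 to 51 reads per library. Its difference of 0.16 gave p = 0.5 in a two-sided exact permutation test, for which the smallest p possible with 10 arrangements of 3 against 2 libraries is 0.1. The difference depended on 1 library, since without the first si-circVAMP3 library it was −0.029.

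IFIT3, which binds IFIT1 and stabilises it, was at 0.118, 0.284 and 0.332 FPKM in the si-SCR libraries and at 0.447 and 0.506 FPKM in the si-circVAMP3 libraries. Both knock-down libraries lay above all 3 controls, and the first control was well below the other controls. The reads numbered 16, 36 and 42 in the controls and 42 and 74 in the knock-down libraries. These counts include a common factor that was set from the gene length. The log2 difference was 0.40, and it was 0.27 without the first si-SCR library, with the groups still apart. The exact permutation test gave p = 0.2. With no filter on low values the limma adjusted p was 0.0627. In limma-voom on the recovered reads, an alternative chosen after seeing the data, IFIT3 was called higher with a log2 change of 1.11 (SE 0.36) and an adjusted p of 0.0421.

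IFIT5, a member that binds single-stranded RNA with a 5′ phosphate, was at 2.30, 2.42 and 2.47 FPKM in the si-SCR libraries and at 2.38 and 2.05 FPKM in the si-circVAMP3 libraries. The groups overlapped, with 1 knock-down library inside the control range and the other below it. The log2 change was −0.094 (SE 0.081, 95% interval −0.29 to 0.098) and the limma adjusted p was 0.418. The size differed with the knock-down library left out, at −0.18 without the first and −0.0059 without the second. IFIT5 was the only member with a negative difference. Transcripts of the IFIT family are diverged, with IFIT1 74.1% identical to IFIT5 and 72.8% to IFIT3 over the aligned bases.

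ISG15 encodes a ubiquitin-like protein that is attached to newly made proteins and is also secreted. It was at 2.03, 2.26 and 0.555 FPKM in the si-SCR libraries and at 2.55 and 2.56 FPKM in the si-circVAMP3 libraries. Both knock-down libraries lay above all controls, but the third control stood far below the other controls. That library held 12 ISG15 reads, and the exact Poisson 95% interval of its level, 0.287 to 0.969 FPKM, did not reach that of the first control, 1.49 to 2.70 FPKM. ISG15 had the largest log2 change of the 4 tested members, 0.65, with an SE of 0.39, a 95% interval of −0.28 to 1.58 and a limma adjusted p of 0.250. Without the third si-SCR library the log2 change was 0.21 (SE 0.079, 95% interval 0.020 to 0.40) and the adjusted p was 0.0858. With any other library left out the log2 change was 0.65 to 0.90. The call was the same with and without the third library, and the size of the difference was not.

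IFI6 and IFITM3 encode membrane proteins, IFI6 of the endoplasmic reticulum and IFITM3 of endosomes, where it restricts fusion of incoming viruses. IFI6 was at 7.75, 7.03 and 5.52 FPKM in the si-SCR libraries and at 7.82 and 8.54 FPKM in the si-circVAMP3 libraries. The groups did not overlap, but the lower knock-down library and the first control were less than 0.1 FPKM apart. The log2 change was 0.27 (SE 0.13, 95% interval −0.043 to 0.58) with a limma adjusted p of 0.167. Without the third si-SCR library, the lowest of the 5, it was 0.14 with an adjusted p of 0.183.

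IFITM3 was at 145, 154 and 150 FPKM in the si-SCR libraries and at 165 and 168 FPKM in the si-circVAMP3 libraries. Both knock-down libraries lay above all controls, and the spread within each group was small, with 3515 to 5558 reads per library. The log2 change was 0.15 (SE 0.041, 95% interval 0.054 to 0.25), a limma adjusted p of 0.0326, far from the fold threshold. The exact permutation test gave p = 0.1, the smallest possible. The adjusted p stayed below 0.05 without the third si-SCR library (0.0378) and was 0.0779 and 0.0552 without the first and second si-SCR library, and 0.129 and 0.176 without the first and second si-circVAMP3 library. With quantile normalisation the log2 change was 0.067 and the adjusted p 0.190. The canonical IFITM3 transcript was 93.9% identical to IFITM2 over 523 aligned bases, with a shared run of 99 bases. It was 88.0% identical to IFITM1 over 392 aligned bases, with a longer shared run of 141 bases. The IFITM3 level is uncertain to the extent that reads could not be assigned to a single copy.

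**Figure D1:**
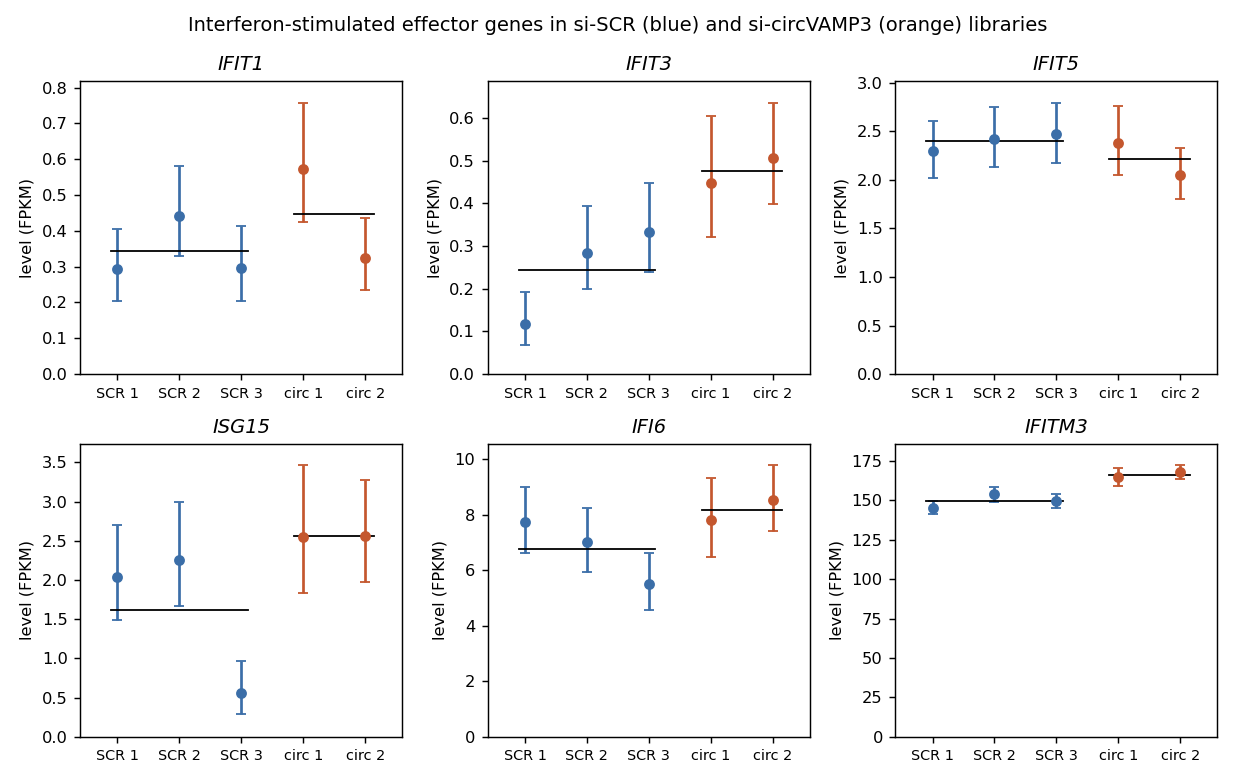
Level in FPKM (vertical axis, from 0) of the 6 measured members in each of the 3 si-SCR libraries (blue, SCR) and 2 si-circVAMP3 libraries (orange, circ). Points are library values, bars their exact Poisson 95% intervals, which cover counting error only, and black lines group means; the third si-SCR library is low for ISG15, at 0.555 FPKM, and the first for IFIT3, at 0.118 FPKM.

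Over the members as a whole, limma called 0 of the 4 tested genes higher (1.09% of all genes tested) and 0 lower (2.72%). At an unadjusted p below 0.05, 1 was higher and 0 were lower, against 21.2% and 21.5% of all genes tested. Limma-voom on the recovered reads of all 6 called 1 higher (IFIT3) and 0 lower, against 1.92% and 4.45% of 13822 genes. By the adjusted p alone 1 of the 4 tested, IFITM3, was higher, where 14.6% of all genes were. The groups did not overlap in 4 of the 6 measured members (IFIT3, ISG15, IFI6 and IFITM3), all higher in si-circVAMP3, against 27.8% of all 13822 genes higher and 28.5% lower without overlap. The median log2 change was 0.21 over the 4 tested members and 0.0071 over all genes tested. With 1 library left out the median over the same 4 was 0.14 to 0.25, lowest without the third si-SCR library.

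The third si-SCR library stood apart from the other controls across the table. The root mean square difference of log2 levels over all tested genes was 0.136 between the first and second si-SCR libraries, 0.207 and 0.183 between each of them and the third, and 0.145 between the 2 si-circVAMP3 libraries. Between the groups it was 0.283 to 0.317. The departure of the third library followed base composition. Across 12210 genes, its difference from the mean of the other controls correlated with the GC content of the canonical transcript (Spearman's rho −0.47), a description over genes that share the same libraries. In the 10% of genes with the highest GC content the median difference was −0.26, and in the 10% with the lowest it was 0.048. The si-circVAMP3 libraries differed from the first and second controls by medians of −0.020 and −0.015 in the same bins. The first control minus the second had medians of 0.092 and 0.010 there, so these controls also differed in the bin richest in GC. The ISG15 transcript, at 64.2% GC, was at percentile 95.1 of all tested genes, and IFITM3 and IFI6 were at percentiles 80.2 and 74.3, whereas IFIT5 (37.6% GC) was at percentile 7.44. The part of base composition in the low ISG15 and IFI6 values of that library was not tested.

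**Figure D2:**
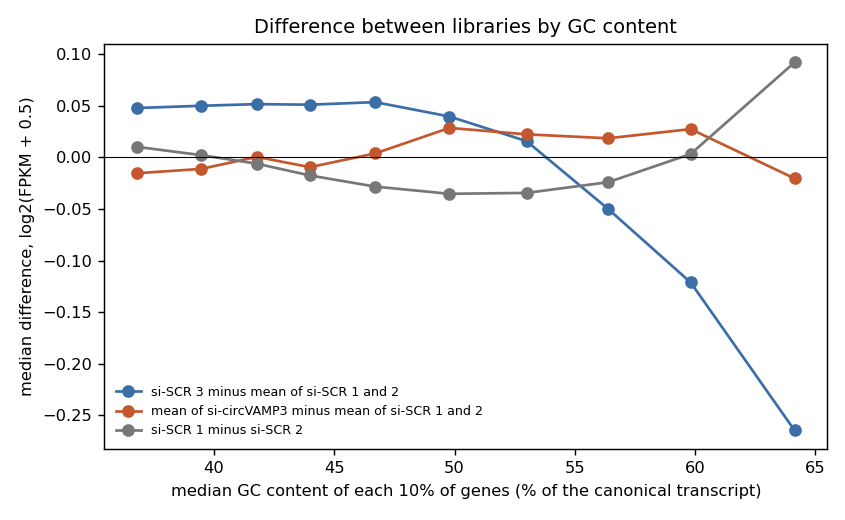
Median difference in log2(FPKM + 0.5) between libraries (vertical axis) in bins that each hold 10% of 12210 tested genes ordered by transcript GC content (horizontal axis, median percent GC of each bin). The third si-SCR library falls to −0.26 below the other controls in the bin richest in GC, whereas the mean of the si-circVAMP3 libraries stays within 0.029 of those controls. The grey line, the first si-SCR library minus the second, runs from −0.035 to 0.092, highest in the bin richest in GC.

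The mean profile of the tested members was lowest in this library, mainly through ISG15. Centred on the mean of each gene, the 4 tested members averaged 0.023, 0.058 and −0.37 in the si-SCR libraries and 0.15 and 0.14 in the si-circVAMP3 libraries. In the third si-SCR library ISG15 was at −1.14, IFI6 at −0.37 and IFITM3 at −0.059, whereas IFIT5 was at 0.073, its highest value of the 5. The genes with the most similar profile over the 5 libraries, by Euclidean distance of centred log2 levels, were RHBDF1 (0.0552), ZBTB17 (0.0563), XAB2 (0.0640), MYH9 (0.0693) and TESK1 (0.0712). RHBDF1 was at 4.45, 4.71 and 3.41 FPKM in the si-SCR libraries and at 5.13 and 5.14 FPKM in the si-circVAMP3 libraries. None of these 5 genes, which were chosen for their likeness to a profile that is lowest in the third si-SCR library, had an adjusted p below 0.05.

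Of 7 close relatives of the members, IFITM2, IFI27L1 and IFI27L2 were in the table and tested. IFITM2, which like IFITM3 restricts viral entry, was at 41.8, 49.6 and 49.3 FPKM in the si-SCR libraries and at 54.7 and 50.9 FPKM in the si-circVAMP3 libraries. The knock-down libraries both exceeded all controls, by a log2 change of 0.17 (SE 0.082, limma adjusted p 0.162), which was 0.091 without the first si-SCR library. IFI27L2 had a log2 change of 0.27 (adjusted p 0.0944) and IFI27L1 one of −0.064 (adjusted p 0.712). The sign for IFI27L1 was not stable, from −0.15 to 0.027 with 1 library left out. Limma called 0 of the 3 higher (1.09% of all genes) and 0 lower (2.72%), and limma-voom 0 in either direction (1.92% and 4.45%). At an unadjusted p below 0.05, 1 was higher (21.2%) and 0 were lower (21.5%).

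Other interferon-stimulated effectors moved in both directions. Of 49 listed genes 23 were in the table and 14 were tested, of which 1 rose (IFI44) and 3 fell (PARP9, DTX3L and GBP1), where 1.09% and 2.72% of all genes did. Limma-voom called 3 of the 23 higher and 4 lower, against 1.92% and 4.45% of all genes. By the adjusted p alone 4 of the 14 were higher and 4 lower, against 14.6% and 15.8% of all genes. The lower gene among them that was short of the fold threshold was SAMHD1, named here after its values were seen (log2 change −0.44, limma adjusted p 0.00712). The median log2 change of the 14 tested genes was 0.095, with a sign that was not stable. It was −0.052 to 0.20 with 1 library left out, −0.011 with no filter and −0.058 by limma-voom. The counts by the adjusted p alone were 3 and 3 without the first si-SCR library, 2 and 3 without the second and 4 and 3 without the third. They were 2 and 3 without the first si-circVAMP3 library and 2 and 2 without the second.

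PARP9 and DTX3L encode partners in 1 complex, an ADP-ribosyltransferase and a ubiquitin ligase, and the genes overlap head to head on chromosome 3, on opposite strands, with annotated starts 239 bases apart. PARP9 was at 4.89, 4.598 and 4.996 FPKM in the si-SCR libraries and at 2.55 and 2.47 FPKM in the si-circVAMP3 libraries. DTX3L was at 6.08, 5.99 and 5.85 FPKM in the si-SCR libraries and at 3.52 and 3.46 FPKM in the si-circVAMP3 libraries. For both genes the groups were far apart compared with the spread inside them, and both knock-down libraries were low. The log2 changes were −0.82 for PARP9 (SE 0.065, limma adjusted p 0.000609) and −0.70 for DTX3L (SE 0.056, limma adjusted p 0.000635). Both genes were called whichever library was left out. They share 1 motif match, which begins 6 bases before the DTX3L start and reads on the opposite strand in a PARP9 promoter, both within chr3:122564317-122564356 (+).
DTX3L: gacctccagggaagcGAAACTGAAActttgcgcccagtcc
The motif was thus found in every member with a promoter entry and at this pair of genes. The other PARP9 entry had 0 matches, as did the entry of TICAM1, a sensor gene described below. Whether a match goes with a change in level was not tested.

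GBP1, a GTPase that coats intracellular bacteria, was at 0.702, 0.518 and 0.791 FPKM in the si-SCR libraries and at 0.255 and 0.250 FPKM in the si-circVAMP3 libraries. Each knock-down library was below all controls, but on only 23 and 35 reads. The log2 change was −0.63 (SE 0.12, limma adjusted p 0.0102). The call held at a pseudocount of 0.1 (log2 change −1.11, adjusted p 0.00755), with no filter on low values, without the variance trend and by limma-voom (−1.37, adjusted p 0.00530). It was lost at a pseudocount of 1 (log2 change −0.41), with quantile normalisation (−0.54) and with a replicate block (−0.56), in which the third si-SCR library has no partner, each short of the fold threshold. Leaving out any 1 of the si-SCR libraries put the mean level below 0.5 FPKM and GBP1 out of the test, and the adjusted p was 0.0649 and 0.0694 without the first and second si-circVAMP3 library. In the promoter of GBP1 the motif had 1 match, at chr1:89065311-89065350 (−).
GBP1: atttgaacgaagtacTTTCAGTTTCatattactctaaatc

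IFI44, a cytoplasmic protein induced by interferon, was at 2.32, 2.32 and 2.05 FPKM in the si-SCR libraries and at 4.13 and 3.36 FPKM in the si-circVAMP3 libraries. Both knock-down libraries were above all controls, and the first was the highest. The log2 change was 0.63 (SE 0.0996, limma adjusted p 0.00564). Without the first si-circVAMP3 library it was 0.50 (adjusted p 0.0457), short of the fold threshold. A motif match lies in both IFI44 promoter entries, at chr1:78649756-78649795 (+).
IFI44: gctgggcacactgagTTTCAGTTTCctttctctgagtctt

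BST2, also called tetherin, holds budding virions at the cell surface, and it was at 4.73, 4.25 and 4.26 FPKM in the si-SCR libraries and at 6.71 and 6.69 FPKM in the si-circVAMP3 libraries. The knock-down values exceeded all controls and were nearly equal to each other. The log2 change was 0.55 (SE 0.066, limma adjusted p 0.00223), just under the fold threshold, and without the first si-SCR library it was 0.60, past it. LGALS3BP, a secreted glycoprotein, was at 9.61, 7.88 and 6.64 FPKM in the si-SCR libraries and at 12.5 and 11.4 FPKM in the si-circVAMP3 libraries. Its groups did not overlap, with a log2 change of 0.56 (SE 0.14, limma adjusted p 0.0246), which was 0.69 without the first si-SCR library and then called. The adjusted p of LGALS3BP was 0.0739 without the second si-SCR library, and 0.149 and 0.0935 without the first and second si-circVAMP3 library. With the first si-SCR library left out the list had 3 genes called higher, and without the first si-circVAMP3 library it had 0. ADAR, the double-stranded RNA editing enzyme, was the most abundant of the list and had a log2 change of 0.19 (SE 0.056, limma adjusted p 0.0464), a p that was 0.0995 to 0.232 when any library but the third si-SCR library was left out.

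**Figure D3:**
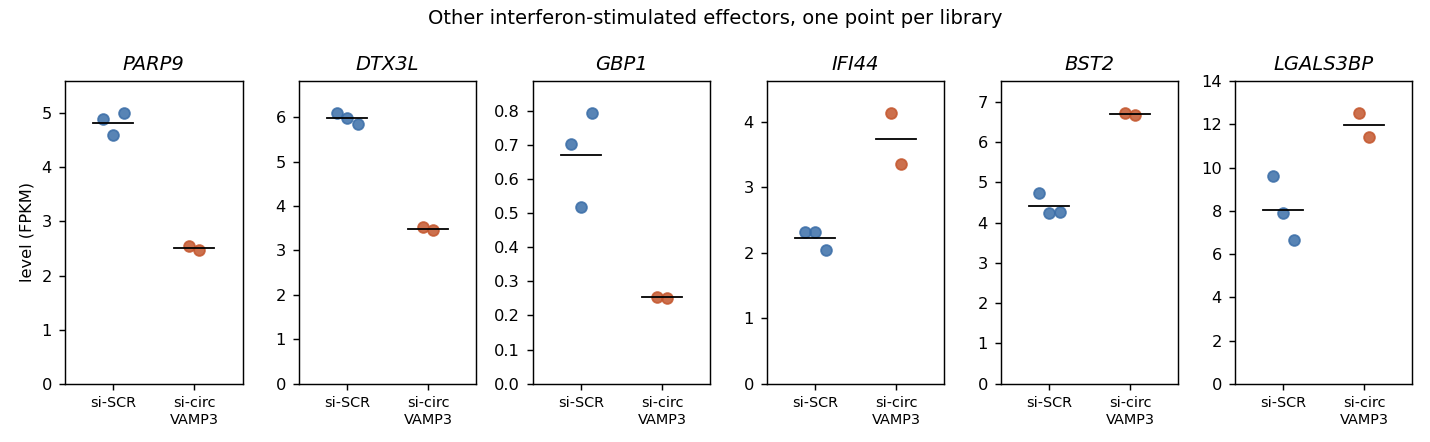
Level in FPKM (vertical axes, from 0) of 6 other interferon-stimulated effectors in the si-SCR libraries (blue) and the si-circVAMP3 libraries (orange), with 1 point per library and black lines for group means. PARP9, DTX3L and GBP1 are lower and IFI44, BST2 and LGALS3BP higher in both si-circVAMP3 libraries than in any control, for example 2.55 and 2.47 FPKM against 4.598 to 4.996 FPKM for PARP9.

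The enzymes that attach ISG15 to proteins also moved in both directions. Of 6 genes in this list 3 were tested, and all had an adjusted p below 0.05, 1 higher and 2 lower (14.6% and 15.8% of all genes), without reaching the fold threshold. UBE2L6, the E2 enzyme that carries ISG15, was at 11.2, 12.7 and 13.3 FPKM in the si-SCR libraries and at 16.8 and 16.8 FPKM in the si-circVAMP3 libraries. The E2 enzyme was higher in both, by a log2 change of 0.42 (SE 0.075, limma adjusted p 0.00798). HERC5, the main ISG15 ligase, was at 3.53, 3.46 and 2.85 FPKM in the si-SCR libraries and at 2.14 and 2.41 FPKM in the si-circVAMP3 libraries. It was lower in both, with a log2 change of −0.44 (SE 0.10, limma adjusted p 0.0197). ARIH1, another ligase, was at 2.98, 2.93 and 3.20 FPKM in the si-SCR libraries and at 2.02 and 1.89 FPKM in the si-circVAMP3 libraries. It too was lower in both, with a log2 change of −0.53 (SE 0.071, limma adjusted p 0.00338). Limma called 0 of the 3 by both thresholds in either direction (1.09% and 2.72% of all genes), with the same 1 higher and 2 lower at an unadjusted p below 0.05 (21.2% and 21.5%). Limma-voom called 0 higher (1.92%) and 1 lower (ARIH1, 4.45%), and at a pseudocount of 0.1 limma also called ARIH1 lower (log2 change −0.61, adjusted p 0.00336). The adjusted p of ARIH1 stayed below 0.05 whichever library was left out. That of UBE2L6 was 0.0614 and 0.0639 without the first and second si-circVAMP3 library, and that of HERC5 was 0.0699, 0.133 and 0.0696 without the second si-SCR library and the first and second si-circVAMP3 library.

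Of the receptors and signalling proteins upstream of the members, none passed both thresholds. Of 20 listed genes 16 were in the table and 14 tested, and limma called 0 in either direction (1.09% and 2.72% of all genes), with 5 higher and 2 lower of the 14 at an unadjusted p below 0.05 (21.2% and 21.5% of all genes). The groups did not overlap in 14 of the 16, 8 higher and 6 lower in si-circVAMP3 (27.8% and 28.5% of all genes). By the adjusted p alone 1 was higher (IRF1) and 1 lower (IFNAR1), where 14.6% and 15.8% of all genes were, both lost without the second si-SCR library or either si-circVAMP3 library, and IFNAR1 also without the first si-SCR library. Without the third si-SCR library 2 were higher and 2 lower, with IFNAR2 (limma adjusted p 0.0237) and IRF3 (0.0288) added. The median log2 change was 0.022, and −0.0026 to 0.069 with 1 library left out. The most abundant were PTPN11, a phosphatase, and the interferon gamma receptor subunits IFNGR2 and IFNGR1, with log2 changes of −0.093, 0.16 and −0.090. SOCS1, STAT2 and IRF9 were singled out after their values were seen. SOCS1, an inhibitor of JAK kinases, had the largest log2 change of the tested genes in this list, 0.48 (SE 0.16, limma adjusted p 0.0672), on 17 to 57 reads per library, and it was 0.70 and 0.27 without the first and second si-circVAMP3 library. STAT2 was at 3.47, 3.89 and 3.30 FPKM in the si-SCR libraries and at 3.96 and 3.89 FPKM in the si-circVAMP3 libraries, with a limma adjusted p of 0.253. IRF9, the DNA-binding partner of STAT2, was too low for the test, at 0.314, 0.190 and 0.325 FPKM in the si-SCR libraries and 0.587 and 0.446 FPKM in the si-circVAMP3 libraries. Both knock-down libraries were above all controls for IRF9, and it was the 1 gene of the list that limma-voom called (log2 change 0.88, adjusted p 0.0477), higher, where 1.92% of all genes were. None of the 12 interferon genes listed was in the table used here.

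Sensors of foreign nucleic acids included 1 gene that rose. Of 13 listed genes 6 were tested, TICAM1 rose (1.09% of all genes) and limma called 0 lower (2.72%), and limma-voom likewise called 1 higher and 0 lower (1.92% and 4.45%). At an unadjusted p below 0.05, 4 of the 6 were higher and 1 lower, against 21.2% and 21.5% of all genes. TICAM1, the adaptor of Toll-like receptor 3, was at 1.13, 0.942 and 0.839 FPKM in the si-SCR libraries and at 2.02 and 1.88 FPKM in the si-circVAMP3 libraries. The groups were well apart, with a log2 change of 0.74 (SE 0.10, limma adjusted p 0.00377), and TICAM1 was called whichever library was left out. TBK1, the kinase downstream of these adaptors, was at 7.37, 7.31 and 7.79 FPKM in the si-SCR libraries and at 10.4 and 10.6 FPKM in the si-circVAMP3 libraries, a log2 change of 0.46 (SE 0.053, limma adjusted p 0.00188). The DNA sensor CGAS had a log2 change of 0.35 (adjusted p 0.0152, but 0.0589 without the second si-SCR library and 0.0771 and 0.106 without the first and second si-circVAMP3 library) and MAVS one of 0.074 (adjusted p 0.423), which was 0.032 to 0.11 with 1 library left out. EIF2AK2, the kinase PKR that double-stranded RNA activates, lies outside the naming rule and was added after its values were seen. It was at 3.80, 4.19 and 4.32 FPKM in the si-SCR libraries and at 2.75 and 2.84 FPKM in the si-circVAMP3 libraries, lower in both, with a log2 change of −0.48 (SE 0.073, limma adjusted p 0.00496). By the adjusted p alone 3 of the 6 sensors were higher and 1 lower (14.6% and 15.8% of all genes).

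Of the genes of antigen presentation, more passed the adjusted p alone than both thresholds. Of 17 listed genes 10 were tested, limma called 0 by both thresholds in either direction (1.09% and 2.72% of all genes) and limma-voom 0 (1.92% and 4.45%), and at an unadjusted p below 0.05 there were 7 higher and 1 lower (21.2% and 21.5% of all genes). By the adjusted p alone 6 of the 10 were higher and 0 lower (14.6% and 15.8% of all genes), with a median log2 change of 0.28. PSME1, a proteasome activator subunit, was the most abundant at 69.7, 67.3 and 72.7 FPKM in the si-SCR libraries and 88.2 and 90.1 FPKM in the si-circVAMP3 libraries. Both knock-down libraries were above all controls, by a log2 change of 0.35 (SE 0.045, limma adjusted p 0.00295). PSME2, the partner of PSME1, had a log2 change of 0.15 (adjusted p 0.0436), and its adjusted p was above 0.05 when any library but the third si-SCR library was left out. TAP2, a subunit of the peptide transporter named here after its values were seen, was the gene lower at an unadjusted p, with a log2 change of −0.25 (adjusted p 0.0667) and groups that did not overlap. The count of 6 higher by the adjusted p alone was 5 without the first si-SCR library, 3 without the second and 7 without the third, and it was 1 without either si-circVAMP3 library. Without the variance trend of limma 4 were higher and 1 lower.

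**Figure D4:**
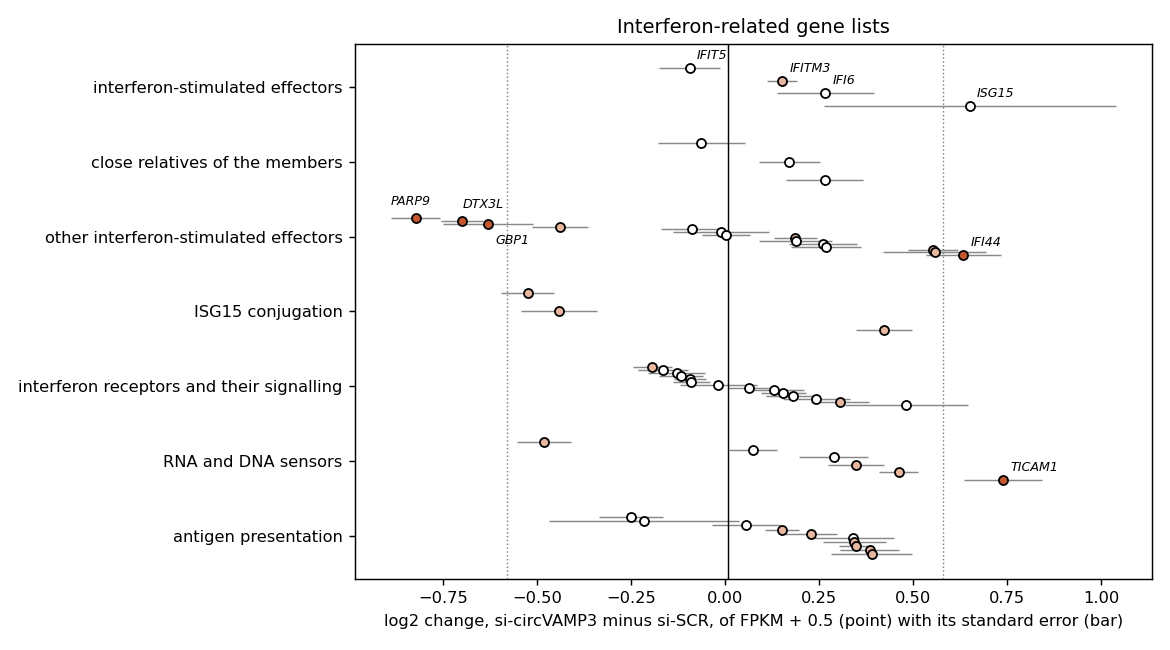
Log2 change of FPKM + 0.5, si-circVAMP3 minus si-SCR (horizontal axis), of each tested gene in 7 interferon-related lists (rows), with its standard error as a bar. Dark points passed both thresholds, pale points the adjusted p alone and white points neither; dotted lines mark the fold threshold of 0.58 and the solid line the median of all genes, 0.0071. None of the 4 members passed both thresholds, and the dark points are PARP9, DTX3L and GBP1 on the left and IFI44 and TICAM1 on the right.

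Genes listed as markers of the tumour type were present at very unlike levels, from a mean of 0.992 FPKM for CDH3 to 269 FPKM for DES. Their log2 changes ran from −0.76 (MYOG) to 0.20 (MYOD1). No other cell line was measured for comparison. All 12 genes listed for alveolar rhabdomyosarcoma were in the table and tested, 0 rose and 1 fell (1.09% and 2.72% of all genes), and limma-voom likewise called 0 higher and 1 lower (1.92% and 4.45%). At an unadjusted p below 0.05, 0 were higher and 3 lower (21.2% and 21.5%). The adjusted p alone gave 0 higher and 2 lower (14.6% and 15.8%), MYOG and FOXO1, the latter named after its values were seen. With 1 library left out it gave 1 to 4 lower, the most without the third si-SCR library. The groups did not overlap in 7 of the 12, all lower (28.5% of all genes). MYOG, a transcription factor of muscle differentiation, was at 175, 179 and 149 FPKM in the si-SCR libraries and at 101 and 96.6 FPKM in the si-circVAMP3 libraries. Both knock-down libraries were far below the controls, with a log2 change of −0.76 (SE 0.081, limma adjusted p 0.00156). The muscle filament gene DES had a log2 change of −0.11 (adjusted p 0.342), which was −0.18 to −0.057 with 1 library left out, and the receptor gene FGFR4 one of −0.26 (adjusted p 0.0988), and without the third si-SCR library the adjusted p was 0.0268 for DES and 0.00356 for FGFR4. None of the 7 leukocyte markers and 5 epithelial markers listed was in the table used here, and of 4 endothelial markers only PECAM1 was, at 0.153 FPKM or less in every library.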

How the data were processed

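The authors trimmed reads with Trimmomatic, aligned them with STAR 2.5.2b to GRCh38, counted reads per gene by strand with HTSeq, tested counts with edgeR and deposited FPKM values per library. The deposited FPKM values of 3 si-SCR and 2 si-circVAMP3 libraries were used here, so a count model was not the main test. The methods name a filter of 1 CPM, but 613 genes of the table reached 1 CPM in fewer than 3 libraries. Of the gene IDs, 13783 matched a symbol and 39 did not.

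Log2(FPKM + 0.5) of the 12245 genes with a mean of at least 0.5 FPKM was fitted with limma 3.58.1 in R 4.3.3 (empirical Bayes with trend), with Benjamini-Hochberg adjustment over all of them. The thresholds, an adjusted p of 0.05 and a log2 change of 0.58, were those of the study. Whole reads were recovered for 13822 of 13822 genes, since ratios of a gene's values are ratios of whole numbers (relative tolerance 1e-12). For 484 genes (3.50%) a common factor was set from GENCODE 44 gene lengths. These reads gave the depths and exact Poisson intervals, which cover counting error only, and an added limma-voom fit. The steps were tested on simulated data. Permutation tests were exact and two-sided.

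The members and lists were chosen with earlier results of these data known. Named genes were VAMP3, all members, the 3 most abundant genes and called genes (at most 6 by p) of every other list, and the 5 genes nearest to the mean member profile; not every gene that this rule names is reported here. The siRNA sequence came from the oligonucleotide list of the study, and gene positions from GENCODE 44. Alternatives were other pseudocounts, filters and scalings, no trend, a replicate block, the adjusted p alone and each library left out.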

Additional observations from a re-analysis of the deposited data

How the results depend on the processing

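Under the alternatives, 91 values for the counts of called genes and for VAMP3 stayed within 1.5 times of the reported count or on the same side of the threshold, and 12 counts did not. VAMP3 kept its sign throughout and had an adjusted p of 0.0506 without the first si-circVAMP3 library, with log2 changes of −0.31 to −0.27 over the libraries left out. For single members 52 values kept their direction and side of the adjusted p threshold of 0.05 (for the untested IFIT1 and IFIT3, stayed within the spread between replicates), although sizes moved, that of ISG15 to 0.21 without the third si-SCR library or with a replicate block, in which that library has no partner, and that of IFIT5 to −0.0059 with 1 library left out. IFITM3 lost its adjusted p in 7 settings, at 0.0552 to 0.190, and IFIT3 was at 1.11 by limma-voom. With limma-voom, added after seeing the data, 265 genes were higher and 615 lower, and 1 member was higher. Of the other interferon-stimulated effectors limma-voom called 3 higher and 4 lower. With no filter limma did not call IFIT3 (adjusted p 0.0627), and the cause of these differences was not tested. With the adjusted p alone 1784 genes were higher and 1939 lower. By this rule 1 member was higher, and of the other effectors 4 were higher and 4 lower. The other effectors called higher numbered 3 at a pseudocount of 0.1 and 0 at a pseudocount of 1, and 0 to 3 with 1 library left out. BST2 (0.55), LGALS3BP (0.56) and IFI44 (0.63) lie near the fold threshold of 0.58 and cross it at these pseudocounts, at 0.59, 0.58 and 0.55. Where a library left out leaves 1 si-circVAMP3 library, that library is assumed to vary like the si-SCR libraries. The fit with a replicate block called 137 genes higher and 351 lower. Deviations from the group means of libraries with the same number had correlations of −0.15 and −0.036 over genes. The deviations of the 2 si-circVAMP3 libraries are mirror images of each other, so these correlations cannot decide whether the numbers mark pairs. The numbers were not read as pairs. Depth limits IFIT1, IFIT3 and ISG15, which rested on 12 to 74 reads per library.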
